A study of Mus musculus with 8 samples.

Results

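Circular RNAs with at least 60 counts summed over 6 RNA libraries are described here in a pair of mouse kidney cell lines. They were chosen by that sum of deposited counts alone. The sum picked 209 of the 2250 circular RNAs listed, which is 9.29%, among 59004 features in all. Of these, 110 carry mmu_circ names and 99 carry novel_circ names. The 110 are 22.9% of the 481 mmu_circ names in the table, and the 99 are 5.6% of the 1769 novel_circ names. A circular RNA entry carries a name and counts only, so host genes, coordinates and sequences are not used here.

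The labels describe mK4 as metanephric mesenchymal cells differentiated towards epithelium, and mK3, the line it is set against, as uninduced cells of the same kind. Metanephric mesenchyme is the embryonic tissue that forms the nephrons of the kidney. Both lines are labelled wild type, were grown in DMEM with 10% fetal bovine serum and received no treatment, and each was sequenced in 3 libraries. Each line is a single established line, and whether its 3 libraries stem from separate cultures is not in the labels. The p-values below therefore reflect only how far these libraries differ, and part of that may be technical.

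A circular RNA forms when the splicing machinery joins the end of a downstream exon back to the start of an upstream one, a reaction called back-splicing. The ring has no free ends, so exonucleases that degrade linear RNA spare it, and circular RNAs tend to be long-lived. RNA-binding proteins such as quaking promote the reaction, and an increase of many circular RNAs has been described in human mammary epithelial cells undergoing an epithelial-to-mesenchymal transition. Names of the form mmu_circ follow the style of the public circular RNA catalogue circBase. The sources used here do not state how the submitters assigned the novel_circ names.

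The labelled identities held in part. Of 8 mesenchymal markers, 7 were lower in mK4 and 1, Vim, was higher, and their summed level was 282 to 298 CPM in mK4 libraries and 3154 to 3749 CPM in mK3 libraries (edgeR, adjusted p under 0.05). Of 8 genes listed as epithelial markers, 4 were higher in mK4, namely Cdh16, Pax2, Pax8 and Pkhd1. Cdh16 and Pax2 were at 0 in every mK3 library, and whether Pax2 and Pax8 mark epithelium alone was not tested. The general markers Cdh1, Epcam, Krt8 and Krt18 were too low to test, with at most 59 counts in an mK4 library and 90 in an mK3 library. Of 3 leukocyte markers none was called, and of 3 endothelial markers Cdh5 was higher in mK4, where it averaged 7.35 CPM against 0 in mK3, and Kdr was lower, at 0 in mK4 against 1.44 CPM in mK3. The part of these differences in the circular RNA results was not tested.

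Circular RNA counts, relative to the table's total, were lower in each mK4 library than in any mK3 library. They had 8578, 9439 and 6725 counts in the mK4 libraries 1, 2 and 3, against 10986, 15019 and 13196 counts in the mK3 libraries, while the totals of the whole table lay between 137559391 and 152952351 counts. Relative to the total of the same table column this is 62.4, 61.7 and 45.3 CPM in the mK4 libraries and 74.8, 104 and 95.3 CPM in the mK3 libraries. The means were 56.5 ± 9.67 CPM in mK4 and 91.3 ± 15 CPM in mK3 (SD, n = 3 each). The lines did not overlap, and the exact two-sided permutation test over libraries gave p = 0.1, the smallest value that 3 against 3 allows (adjusted p = 0.1 over 3 such tests). The protocol adds a removal of linear RNA for circular RNA libraries, and whether circular RNAs and genes of a column were counted in the same library is not stated, so these CPM may be ratios across separate libraries. In bulk libraries, fewer cells that carry a circular RNA and less of it per cell cannot be told apart. With 6725 to 15019 circular RNA counts in a library, counting error limits every value below.

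**Figure D1:**
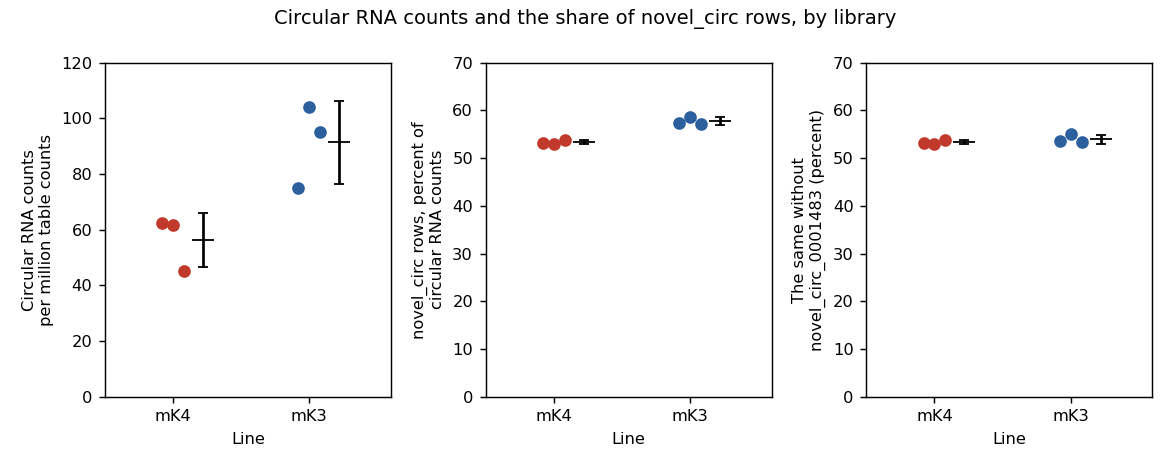
Circular RNA counts as CPM of the total of the same table column, which may combine separate libraries (left), the percent of circular RNA counts on novel_circ names (middle) and the same percent without novel_circ_0001483 (right), with 1 point per library and bars for the mean ± SD of 3 libraries per line. The CPM of all circular RNAs averages 56.5 in mK4 and 91.3 in mK3, and the difference in the novel_circ percent shrinks to -0.69 percentage points once the circular RNA with the most counts is left out.

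The 209 circular RNAs held most of these counts, 56.3 ± 3.85% in mK4 and 60.2 ± 1.42% in mK3 (SD, n = 3 each). Their sums ran from 60 to 3189 with a median of 108, and mK3 supplied a median of 59.1% of a sum. The mK3 libraries held more circular RNA counts in all, so a choice by sums draws more on mK3. Whether it did so beyond that larger total was not tested. The sums of mmu_circ names had a median of 125 and a maximum of 1652, and those of novel_circ names a median of 98 and a maximum of 3189. Among the smallest sums inside the limit were novel_circ_0002131, with 7, 13 and 0 counts in mK4 against 15, 12 and 13 in mK3, and novel_circ_0002845, with 12, 10 and 0 counts in mK4 and 10, 14 and 14 in mK3. Just outside it, at a sum of 59, stood mmu_circ_0001900, with 14, 6 and 16 counts in mK4 against 4, 2 and 17 in mK3, and novel_circ_0001908, with 7, 2 and 12 counts in mK4 and 9, 13 and 16 in mK3. Values on either side of the limit look alike.

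Detection, here any count above 0, differed between the name classes. Of the 110 mmu_circ names, 82 (74.5%) had counts in all 6 libraries, against 48 of the 99 novel_circ names (48.5%). The gap was there at low and high sums: with sums below 100 the shares were 62.2% of 37 mmu_circ names and 29.4% of 51 novel_circ names, and with sums of 100 or more they were 80.8% of 73 and 68.8% of 48. These counts describe the chosen circular RNAs and carry no test, because detection is tied to the sum that chose them and circular RNAs are not replicates.

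The gap was wider in mK4 (80.9% against 58.6% in all 3 libraries) than in mK3 (92.7% against 86.9%). The sums drew more on mK3 for novel_circ names, where mK3 supplied a median of 65.2% of a sum, against 55.2% for mmu_circ names. The part of the choice by sums in the wider gap was not tested. All 3 mK4 libraries detected 89 of the 110 mmu_circ names, 2 libraries detected 15, 1 detected 6 and none was missed by all 3. All 3 mK3 libraries detected 102 of them, 2 detected 4, 1 detected 2, and 2 names were at 0 in mK3. For the 99 novel_circ names the mK4 libraries gave 58 in all 3, 21 in 2, 10 in 1 and 10 in none, and the mK3 libraries gave 86 in all 3, 7 in 2, 3 in 1 and 3 in none. The names at 0 in a whole line were thus all at 0 in mK3 for mmu_circ and mostly at 0 in mK4 for novel_circ.

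**Figure D2:**
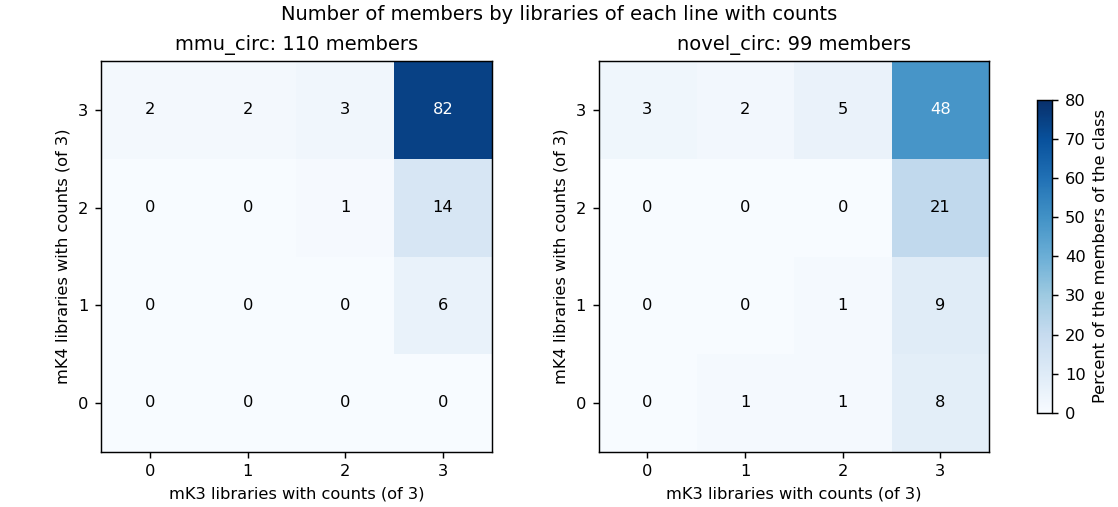
Number of circular RNAs by how many of the 3 mK4 libraries (vertical axis) and how many of the 3 mK3 libraries (horizontal axis) had counts, for mmu_circ names (left, 110) and novel_circ names (right, 99), with the shade giving the percent of the class. The corner with all 6 libraries holds 82 mmu_circ and 48 novel_circ names, and the bottom line, at 0 in every mK4 library, holds no mmu_circ name and 10 novel_circ names.

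By library, the mK4 libraries 1, 2 and 3 detected 184, 184 and 161 of the 209, and the mK3 libraries 196, 197 and 198. The means were 176 ± 13.3 in mK4 and 197 ± 1.00 in mK3 (SD, n = 3 each), with no overlap between the lines. This is a description, since the same counts chose the 209. The mK4 replicate 3 stood apart, with the fewest circular RNA counts and 437 circular RNAs detected in all, where the other mK4 libraries had 777 and 814. Without it, mK4 libraries detected 13 fewer on average than mK3 libraries, against 20.7 fewer with all libraries. When each library was thinned to 6725 circular RNA counts and detection set at 2 counts, the smallest circular RNA value above 0 in the table, mK4 libraries detected 17.2 fewer.

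Split by name, the mK4 libraries 1, 2 and 3 detected 105, 105 and 93 of the 110 mmu_circ names, against 104, 106 and 106 in the mK3 libraries, so the lines overlapped and only mK4 replicate 3 lay apart. Of the 99 novel_circ names the mK4 libraries detected 79, 79 and 68, against 92, 91 and 92 in the mK3 libraries, and every mK4 library lay below every mK3 library. As percents these are 91.8 ± 6.30% of mmu_circ names in mK4 and 95.8 ± 1.05% in mK3, and 76.1 ± 6.42% of novel_circ names in mK4 and 92.6 ± 0.583% in mK3 (SD, n = 3 each). Libraries thinned to the same 6725 circular RNA counts detected 95.0%, 95.3% and 84.5% of mmu_circ names in mK4 and 93.3%, 93.5% and 92.8% in mK3, so the mK4 libraries 1 and 2 lay above and library 3 below all of mK3. For novel_circ names the thinned values were 79.2%, 79.5% and 68.7% in mK4 and 92.4%, 90.5% and 91.4% in mK3, with every mK4 library below every mK3 library. Thinning matched only this total and not its make-up, in which novel_circ_0001483 took 8.15% in mK3 and 0 in mK4.

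Listed zeros sometimes stood beside high counts in another library of the same line. Of the 13500 values for circular RNAs, 8481 (62.8%) were 0, none was 1 and 338 were 2, whereas 5706 gene values and 746 miRNA values were 1. The deposited circular RNA counts therefore start at 2, and no upper limit on a level can be read from a 0. In 278 cases a circular RNA reached 20 counts in some library of a line, and in 21 of these (7.55%) another library of the same line was at 0. This held for 14 of 122 cases of novel_circ names (11.5%) and 7 of 156 of mmu_circ names (4.49%). Of the 21 cases, 17 were in mK4, and 13 of those 17 had a 0 in mK4 replicate 3. Protein-coding genes with sums in the same range gave 1705 of 7058 such cases (24.2%), and miRNAs gave 0 of 458.

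The circular RNA with the largest share of its sum in a single library was novel_circ_0001079, with 152 counts in mK3 replicate 1 and 0 in the other 5 libraries. Its whole sum of 152 rests on 1 library, and it did not pass the filter on low counts. The next in that order were mmu_circ_0000659, with 10, 45 and 0 counts in mK4 against 3, 3 and 0 in mK3, novel_circ_0000834, with 0 in mK4 and 14, 8 and 39 counts in mK3, and mmu_circ_0001370, with 4, 19 and 38 counts in mK4 against 0 in mK3. These 3 did not pass the filter either.

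Next, the lines were compared for each circular RNA. The test was edgeR's quasi-likelihood test of mK4 against mK3 over all circular RNAs that passed the filter, with Benjamini-Hochberg adjustment over all of them and calls at an adjusted p under 0.05. Of the 209, 191 passed the filter and 18 did not. Of the 191, 21 were higher in mK4, 18 were lower and 152 were not called. Over all 216 circular RNAs tested, 26 (12%) were higher, 20 (9.26%) were lower and 21.3% were called in either direction, and the median log2 fold change was -0.24 over the 191, against -0.082 over all 216. The 39 calls are 20.4% of the 191, close to that background, as the 191 make up most of the 216.

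The calls divided over both name classes. Of 104 mmu_circ names tested, 13 were higher in mK4 and 10 lower, with a median log2 fold change of 0.033. Of 87 novel_circ names tested, 8 were higher and 8 lower, with a median of -0.47. The difference between the classes was not tested. The balance of directions depended on scaling: when libraries were scaled by the totals of the whole table, which moved the median of all circular RNAs tested by -0.41 on the log2 scale, 12 of the 191 were higher and 21 lower. The number of calls depended on the mK3 libraries, since 20, 21 and 22 of the chosen circular RNAs were called without mK3 replicate 1, 2 and 3, in place of 39. Without mK4 replicate 1, 2 and 3 the numbers were 35, 41 and 42. The set tested also changed, with 263 to 316 circular RNAs tested when a library was left out, in place of 216.

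Scaled counts below are counts divided by library size after TMM scaling and multiplied by the mean size, given as mean ± SD with n = 3 libraries per line. No fold is given where a line is at 0 in every library. Overlap of a circular RNA between the lines is read on counts before scaling unless scaled counts are named, and scaling can change it.

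The circular RNA with the most counts of all was novel_circ_0001483. It had 0 counts in each mK4 library and 922, 1204 and 1063 counts in the mK3 libraries. It took 8.15 ± 0.207% of the circular RNA counts of mK3 (SD, n = 3). Its scaled count in mK3 was 946 ± 37.9 (adjusted p = 5.59e-09, edgeR). It was chosen and passed the filter only through its mK3 counts, so this call is not independent of the choice. Novel_circ names took 53.3 ± 0.427% of circular RNA counts in mK4 and 57.7 ± 0.839% in mK3 (SD, n = 3 each, exact two-sided permutation test, p = 0.1, the smallest possible), a difference of -4.44 percentage points that shrank to -0.69 without novel_circ_0001483 (p = 0.3 by the same exact permutation test).

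Among mmu_circ names, the largest sum belonged to mmu_circ_0000604. It had 116, 102 and 90 counts in mK4, against 373, 490 and 481 counts in mK3, and the lines did not overlap. Its scaled count was 118 ± 15.3 in mK4 and 398 ± 9.11 in mK3, and its log2 fold change was -1.76 ± 0.11 (SE, adjusted p = 1.20e-05). The next, mmu_circ_0001704, had 130, 166 and 147 counts in mK4, against 271, 346 and 340 counts in mK3. It was lower in mK4 by a smaller margin, with a log2 fold change of -0.75 ± 0.10 (SE, adjusted p = 0.00117). Both calls held in all 12 alternative analyses.

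Further circular RNAs with high sums were lower in mK4. The circular RNA novel_circ_0001094 had 48, 55 and 60 counts in mK4, against 187, 276 and 312 counts in mK3 (log2 fold change -1.87 ± 0.18, adjusted p = 0.00018). Likewise mmu_circ_0001614 had 17, 34 and 17 counts in mK4, against 97, 94 and 107 in mK3 (-1.80 ± 0.32, adjusted p = 0.00537). These are 3.64-fold and 3.48-fold lower in mK4, beside 3.38-fold for mmu_circ_0000604, and both calls held in all 12 alternatives. The circular RNA mmu_circ_0000805 had 67, 70 and 54 counts in mK4, against 146, 199 and 116 in mK3 (-0.92 ± 0.22, adjusted p = 0.0204). This call failed when mK3 replicate 1 or 2 was left out (adjusted p 4.79e-05 to 0.0819 over 12 alternatives).

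Some circular RNAs were at or near 0 in mK4. Counts of mmu_circ_0000693 were 0, 5 and 0 in mK4, against 92, 122 and 144 in mK3, a log2 fold change of -5.72 ± 0.70 (adjusted p = 0.000775) whose size rests on 5 counts in mK4 replicate 2. Without that library mK4 is at 0, the fitted log2 fold change is -9.76 and its size cannot be read as a fold. Counts of novel_circ_0002505 were 0 in mK4, against 74, 60 and 48 in mK3 (adjusted p = 0.000803). Counts of novel_circ_0001165 were 0 in mK4, against 25, 53 and 29 in mK3 (adjusted p = 0.00312). These calls held in every alternative in which they could be tested, 12 for mmu_circ_0000693 and 11 for each of the others. Each of these circular RNAs reached the sum of 60 and passed the filter only through mK3. Their calls, and how often they held, are therefore not independent of the choice.

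In the other direction, mmu_circ_0001683 had 78, 108 and 70 counts in mK4, against 6, 13 and 8 counts in mK3. The lines were far apart, with scaled counts of 96.7 ± 14.1 in mK4 and 7.84 ± 2.23 in mK3, a 12-fold difference (log2 fold change 3.59 ± 0.34, adjusted p = 0.00018). Counts of mmu_circ_0001143 were 56, 57 and 57 in mK4, nearly equal, against 0, 0 and 4 in mK3 (5.64 ± 0.73, adjusted p = 0.000967). The size of this difference rests on 4 counts in mK3 replicate 3, and without that library mK3 is at 0, the fitted log2 fold change is 8.94 and its size cannot be read as a fold. Both calls held in all 12 alternatives. The counts by which mmu_circ_0001143 was chosen and passed the filter lay almost wholly in mK4. Its call, and how often it held, are therefore not independent of the choice.

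Of the 5 circular RNAs at 0 in every mK3 library, 4 were called. Counts of novel_circ_0000744 were 59, 68 and 47 in mK4 and 0 in mK3 (adjusted p = 0.00018), and those of mmu_circ_0000448 were 46, 47 and 28 in mK4 and 0 in mK3 (adjusted p = 0.000775). Counts of novel_circ_0002263 were 21, 22 and 36 in mK4 and 0 in mK3 (adjusted p = 0.00312). Counts of novel_circ_0002718 were 24, 18 and 27 in mK4 and 0 in mK3 (adjusted p = 0.00443, and 0.0501 with the replicate number as a block, range over 11 alternatives 7.04e-07 to 0.0501). The fifth, mmu_circ_0001370, was not tested. A circular RNA at 0 in a line reached the sum of 60 and passed the filter only through its other line. These 4 calls are therefore not independent of the choice, and neither are the 4 calls at 0 in every mK4 library. The same holds for calls near 0 in a line, such as mmu_circ_0000693, mmu_circ_0001143 and mmu_circ_0001682.

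**Figure D3:**
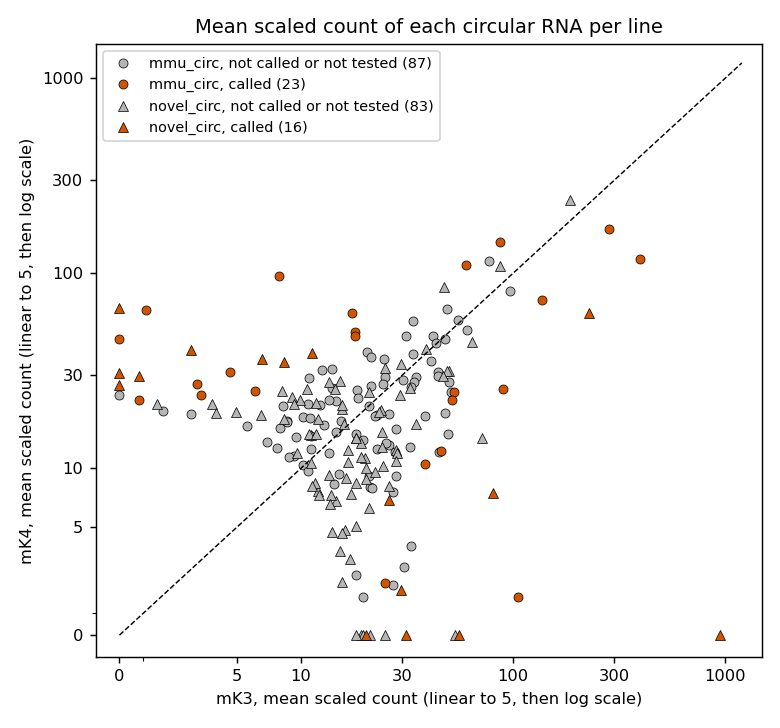
Mean scaled count of each of the 209 circular RNAs in mK4 (vertical axis) against mK3 (horizontal axis), each axis linear up to 5 and logarithmic above, with circles for mmu_circ names, triangles for novel_circ names, orange for calls and a dashed line of equality. The 4 called at the left edge are at 0 in mK3, those on the bottom edge are at 0 in mK4, and novel_circ_0001483 lies far to the right at a scaled count of 946 in mK3.

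Several circular RNAs with high counts were not called. Counts of novel_circ_0001873 were 192, 211 and 219 in mK4 and 188, 245 and 190 in mK3, which overlap before scaling. Its scaled counts were 238 ± 28.2 in mK4 and 185 ± 20.7 in mK3 and did not overlap (log2 fold change 0.36 ± 0.13, adjusted p = 0.0833). Counts overlapped between the lines also for novel_circ_0002130, with 89, 123 and 75 in mK4 and 107, 105 and 73 in mK3 (0.33 ± 0.25, adjusted p = 0.406), and for mmu_circ_0001830, with 42, 51 and 57 in mK4 and 34, 79 and 78 in mK3 (0.054 ± 0.32, adjusted p = 0.896). The sign of these 3 differences turned when table totals set the scale.

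Counts of mmu_circ_0000681 were 92, 141 and 75 in mK4 and 83, 117 and 60 in mK3 (0.58 ± 0.28, adjusted p = 0.191). Counts of mmu_circ_0001335 were 90, 67 and 56 in mK4 and 80, 121 and 129 in mK3 (-0.25 ± 0.23, adjusted p = 0.483). Neither was called in any alternative. The library-to-library spread was wider for novel_circ_0001812, with 62, 98 and 65 counts in mK4 and 29, 95 and 42 in mK3 (0.83 ± 0.37, adjusted p = 0.171). Leaving out mK3 replicate 2 gave 0.0279, the lowest adjusted p of 12 alternatives, and the highest was 0.556. Counts of novel_circ_0002397 spread as widely, with 19, 43 and 54 in mK4 and 58, 93 and 66 in mK3, without overlap before scaling. Its scaled counts, 44.6 ± 22.3 in mK4 and 63.9 ± 9.48 in mK3, did overlap (-0.52 ± 0.39, adjusted p = 0.405).

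A pair of calls among the highest sums were weak. Counts of mmu_circ_0001624 were 132, 129 and 116 in mK4 and 73, 105 and 116 in mK3, so before scaling the lines met at 116. Its scaled counts, 144 ± 9.56 in mK4 and 86.5 ± 10.97 in mK3, did not overlap (0.73 ± 0.17, adjusted p = 0.0143). The call was lost in 6 of 12 alternatives (adjusted p 0.0102 to 0.374). Counts of mmu_circ_0000635 were 91, 86 and 110 in mK4 and 60, 56 and 84 in mK3 (0.89 ± 0.26, adjusted p = 0.0417), and this call was lost in 9 of 12 alternatives (adjusted p 0.0256 to 0.37).

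**Figure D4:**
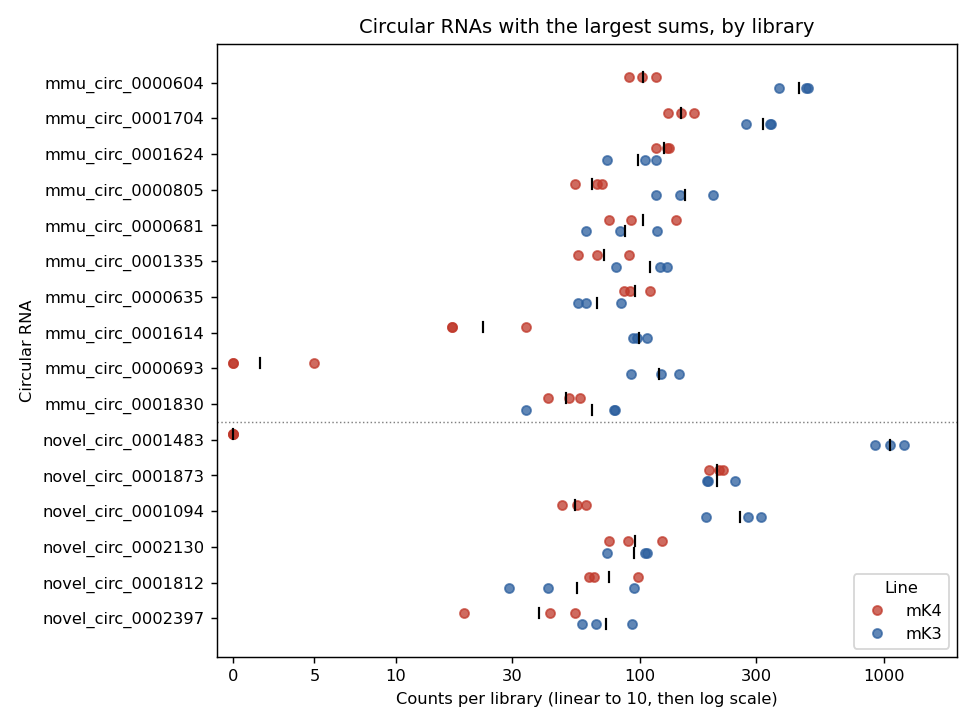
Counts per library of the 10 mmu_circ names (above the dotted line) and the 6 novel_circ names (below it) with the largest sums, 1 point per library, red for mK4 and blue for mK3, with a bar at each mean, on an axis that is linear up to 10 and logarithmic above. The 3 mK4 points of novel_circ_0001483 sit at 0 while its mK3 points lie between 922 and 1204, and the points of novel_circ_0001873 fall between 188 and 245 in both lines.

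The remaining 22 calls comprised 13 circular RNAs higher in mK4, by 2.64-fold to 29.6-fold, and 9 lower, by 2.13-fold to 12.8-fold where neither line was at 0. No circular RNA among them had overlapping counts between the lines before scaling. They were picked by their calls, so this separation adds no support to the calls. Among these 22, novel_circ_0000729 had 0 counts in mK4, against 22, 20 and 25 in mK3 (adjusted p = 0.00997), the only 1 at 0 in a line. Of all 39 calls, 14 were kept in each of 11 alternatives, not counting the fit to those above 0 in both lines, 6 of them higher in mK4 and 8 lower, with 7 from each name class. None of the 39 changed sign in any of the 11.

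The spread between replicates was also read by name class. Where all 3 libraries of a line had counts, the median coefficient of variation of scaled counts was 0.31 for 89 mmu_circ names and 0.36 for 58 novel_circ names in mK4. In mK3 it was 0.30 for 102 mmu_circ names and 0.29 for 86 novel_circ names. These values leave out every circular RNA with a 0, which novel_circ names had more often, and they were not tested.

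Finally, genes that act on circular RNAs were read in the same table, with edgeR's test over all genes. Of 26 listed genes for formation, export, turnover, sensing and m6A marking, 25 were tested, 4 were higher in mK4, 9 were lower and 12 were not called. Over all 20405 genes tested, 20.8% were higher, 19.5% were lower and 40.3% were called in either direction. The median log2 fold change of the 25 was -0.16, against 0.024 over all genes.

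Formation genes moved both ways. Qk, which encodes the quaking protein that promotes back-splicing in human cells, had 38360, 48983 and 39594 counts in mK4, against 59297, 53795 and 50848 in mK3. It fell to 289 ± 29.8 CPM in mK4, against 410 ± 3.10 CPM in mK3 (log2 fold change -0.50 ± 0.083, adjusted p = 0.00406), and the lines did not overlap. Ilf2, which encodes an RNA-binding protein, rose to 34.1 ± 1.69 CPM in mK4, against 23.3 ± 1.64 CPM in mK3 (adjusted p = 0.00514). Rbm20 and Nova2, splicing regulator genes of heart and nervous tissue, were also called, and are named after their values were seen. Rbm20 averaged 3.67 ± 1.61 CPM in mK4 and 0.442 ± 0.319 CPM in mK3, and Nova2 averaged 1.45 ± 0.48 CPM in mK4 and 0.25 ± 0.154 CPM in mK3. Adar, which encodes an RNA-editing enzyme that limits back-splicing by loosening paired repeats, had 23910, 25507 and 29626 counts in mK4, against 19980, 15367 and 15415 in mK3. It rose to 180 ± 15.5 CPM in mK4, against 126 ± 11.6 CPM in mK3 (0.51 ± 0.099, adjusted p = 0.00774).

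Called genes of export, turnover and sensing were lower in mK4 in all 7 cases. Xpo4, an exportin gene, fell to 139 ± 4.99 CPM in mK4, against 340 ± 5.55 CPM in mK3 (-1.29 ± 0.056, adjusted p = 3.05e-05). Of 8 turnover genes, 4 were lower and 4 were not called. G3bp1, whose product helps degrade structured RNA, fell to 212 ± 7.15 CPM in mK4, against 334 ± 5.99 CPM in mK3 (adjusted p = 0.00026). Ythdf2, the reader of m6A that recruits RNA decay, fell to 98.1 ± 1.15 CPM in mK4, against 132 ± 5.85 CPM in mK3 (adjusted p = 0.00261), and Ago2, the slicer of miRNA-guided cleavage, fell to 209 ± 14.9 CPM in mK4, against 302 ± 33.5 CPM in mK3 (adjusted p = 0.0071). The sensors of double-stranded RNA Eif2ak2 and Ddx58 were lower in mK4, at 104 ± 8.33 and 144 ± 6.52 CPM in mK4, against 245 ± 10.5 and 248 ± 7.84 CPM in mK3 (adjusted p = 0.000108 and 0.000228). The genes given here with an adjusted p all kept their direction and their call in each of 11 alternatives. Neither of 2 genes of m6A marking was called. Whether any of these genes bears on the circular RNA counts was not tested.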

How the data were processed

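RNA was sequenced from 3 mK4 and 3 mK3 libraries. Per the labels' protocols, ribosomal RNA was removed from total RNA and libraries kept the strand, while linear RNA was also removed for circular RNA libraries. The authors deposited 1 table of whole-number counts per feature, not normalized, for genes, miRNAs and circular RNAs. STAR 2.7.10a, HTSeq 2.0.2 and build mm10 are named per the submitters' processing notes. The sources used here do not state how circular RNAs were called and counted, or whether genes and circular RNAs were counted in the same libraries. The ATAC-seq data were not used. No entry was a total or an unassigned class.

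Circular RNAs and genes were each fitted alone with edgeR 4.0.16 in R 4.3.3 (filterByExpr, TMM, robust glmQLFit, glmQLFTest, Benjamini-Hochberg adjustment over all features tested in the class). A standard error is the log2 fold change divided by the square root of the F statistic. Detection was also read at 3 counts and for sums of at least 30 or 100. Other alternatives were RLE scaling, table totals, DESeq2 1.42.0, no filter, a replicate block, each library left out and, chosen after seeing the data, only circular RNAs above 0 in both lines, or none of novel_circ_0001483. Permutation tests enumerated all groupings, and thinning used the hypergeometric distribution (SciPy 1.17.1). Steps were tested on simulated data. No upper limit is given for a 0, since the circular RNA counts start at 2. Each library counted as a sample. Circular RNA counts of replicates differed by 3.59 to 6.92 times sampling noise (chi-square per degree of freedom), which does not show whether they are separate cultures. Replicate numbers did not pair the libraries of the lines.

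The circular RNAs and gene lists were chosen with earlier results of these data known. Named circular RNAs were the 10 mmu_circ and 6 novel_circ names with the largest sums, the 6 smallest adjusted p per direction, up to 4 of the largest sums at 0 in the other line, 2 on either side of the limit of 60, and 4 with the largest share in 1 library. That makes 30, of which 26 were tested. Of listed genes, up to 3 called per role were named, of which 1 is not reported here. Qk and Ddx39 are the table's symbols for Qki and Ddx39a.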

Additional observations from a re-analysis of the deposited data

How the results depend on the processing

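Over 26 named circular RNAs, 275 of the alternative values kept direction and call, 18 lost the call, 1 gained it and 9 changed sign, all 9 for circular RNAs that were not called. For mmu_circ_0001830 these were -0.093 with RLE scaling, -0.39 with table totals, -0.10 with DESeq2, -0.21 without the filter, -0.14 without mK4 replicate 3 and -0.25 without mK3 replicate 1, with a range over left-out libraries of -0.25 to 0.14. With table totals novel_circ_0001873 was at -0.033 and novel_circ_0002130 at -0.019, and novel_circ_0002845 was at 0.088 without mK4 replicate 3 (range over left-out libraries -1.05 to 0.088). The cause was not tested. The genes named with an adjusted p kept direction and call in each of 11 alternatives.

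Replicate numbers are shared between the lines, but same-numbered libraries deviated together with correlations of only 0.095, 0.0013 and -0.0041 over the chosen circular RNAs that were tested, and 1 of 3 mK4 libraries correlated best with its own number, so the numbers are not taken as pairs. With a replicate block 19 circular RNAs were called, 10 higher and 9 lower, all among the chosen 209. All 19 were among the 39 calls of the report. With table totals 12 and without the filter 11 of the chosen circular RNAs were higher. With only circular RNAs above 0 in both lines, 28 were called, 14 of them higher, and among the named ones 9 were called and 3 were higher; this fit leaves out those at 0 in a line by construction. With 1 library left out, 22 to 71 of all circular RNAs were called (11 to 34 higher, 8 to 37 lower), the 71 without mK4 replicate 3, and 20 to 42 of the chosen ones (9 to 18 higher, 8 to 25 lower). The difference in detected circular RNAs was -66.7 with a limit of 30 counts in the sum. The novel_circ share differed by -10.0 percentage points within the chosen 209, and by -0.69 without novel_circ_0001483. Circular RNA totals of 6725 to 15019 counts limit all of these.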

Other observations

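Some chosen circular RNAs carry consecutive numbers in their names, 22 pairs in all, and in 2 of these both were called. Other pairs had log2 fold changes of opposite sign, among them mmu_circ_0001624 with mmu_circ_0001625 and mmu_circ_0001271 with mmu_circ_0001272. The sources used here do not state what the order of numbers stands for. The pair mmu_circ_0001682 and mmu_circ_0001683 were both called higher in mK4: mmu_circ_0001682 had 22, 27 and 11 counts in mK4, against 0, 0 and 3 in mK3 (adjusted p = 0.0243, edgeR), and mmu_circ_0001683 is described above. The pair mmu_circ_0000917 and mmu_circ_0000918 were also both higher, with 16, 22 and 24 counts in mK4 and 6, 3 and 2 in mK3 for mmu_circ_0000917 (adjusted p = 0.0252, edgeR) and 21, 27 and 18 counts in mK4 and 8, 7 and 5 in mK3 for mmu_circ_0000918 (adjusted p = 0.0318, edgeR). The neighbour in name of novel_circ_0002505 was novel_circ_0002506, with 0 counts in mK4 and 0, 41 and 29 in mK3, also at 0 in mK4 but not tested. These pairs were picked after their values were seen. A pair with numbers far apart, mmu_circ_0001889 and novel_circ_0001402, had the same 27, 26 and 11 counts in mK3, with 0, 5 and 0 counts in mK4 for mmu_circ_0001889 and 0 in mK4 for novel_circ_0001402.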
